A study of Mus musculus with 6 samples.

Results

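Genes for the proteins of the mitochondrial ribosome were followed in livers taken 4 h after a lentiviral vector and in untreated livers. The members are the rows of the deposited expression table whose gene name begins with Mrpl or Mrps and goes on with a digit, 70 of 8390 genes in all. By name, 44 belong to the large subunit (Mrpl) and 26 to the small subunit (Mrps). RefSeq's genes on GRCm38.p6 include 78 protein-coding genes with such names, and all 70 rows matched one of them. Mrpl57 and Mrpl58 stand in the table under the older names Mrp63 and Ict1, which the rule does not take. Mrpl23, Mrpl42, Mrpl47, Mrps18c, Mrps33 and Mrps36 were not analysed here. The rule uses gene names and no measured value.

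The mitochondrial ribosome makes the few subunits of oxidative phosphorylation that the mitochondrial genome encodes. Its RNAs come from that genome, but its proteins are encoded in the nucleus, made in the cytosol and imported. Many descend from proteins of bacterial ribosomes, and others were added in the mitochondrial lineage. The small subunit decodes the messenger RNA, and the large subunit forms the peptide bonds and binds the inner membrane. In liver, a tissue rich in mitochondria, the ribosome serves the oxidative metabolism of hepatocytes.

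RNA sequencing covered whole livers of 6 mice of the inbred C57BL/6 strain. In the LV group, 3 mice received 3e8 transducing units of a lentiviral vector (LV) by vein and were killed 4 h later. The untreated group held 3 mice whose treatment is labelled none. The labels conflict here, since the treatment protocol entered for these mice repeats the vector injection of the LV mice. The groups follow the titles and the treatment label. No group is labelled mock-injected, so the vector cannot be told apart from the injection and handling. The labels give no age, sex or litter and do not say what the vector carried. The labels do not say whether the replicates came from separate experiments, so p-values speak for the spread among these 6 livers. Whole liver also mixes cell types, and fewer cells of a type cannot be told apart from less RNA per cell.

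The table gives 1 whole number per gene and library in a unit that no label or header names. Column sums ran between 497295 and 526009. They give no read totals, so the depth is unknown and intervals for counting error cannot be had. The values behaved as if already divided by transcript length, which is why levels of different genes are compared here. A fold change here is mean log2(value + 1) in LV minus that in untreated livers, with its standard error (SE) and a 95% interval from limma, and it understates the change of low genes. An adjusted p is Benjamini-Hochberg adjusted over all 8386 tested genes, all 70 members among them, and is called under 0.05. In that fit 315 genes were higher and 73 lower, so 3.76% were called higher, 0.87% lower and 4.63% in either direction. Hepatocyte genes dominated the table, with Alb, which encodes albumin, at 50232 ± 7389 in LV and 61581 ± 11042 in untreated livers (SD, n = 3 each). Of 5 hepatocyte markers, 3 had a negative fold change, Alb among them, 2 a positive one, and 0 were called. Hnf4a, a positive one, had 227, 218 and 216 in LV livers and 189, 193 and 184 in untreated livers. In LV replicate 3 and untreated replicate 2, 6 male-biased liver genes summed to 1517 and 1667, against 90 to 350 in the other libraries.

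None of the 70 genes of the mitochondrial ribosome passed the test in either direction, beside the background of 3.76% higher and 0.87% lower. At an adjusted p under 0.1 the count was also 0, against 8.11% of all genes. The smallest adjusted p in limma was 0.131, that of Mrpl41, a large-subunit protein with no bacterial counterpart. At an unadjusted p under 0.05, 2 members were higher and 4 lower, beside 9.21% and 10.3% of all genes. Fold changes on the log2 scale ran from -0.49 for Mrpl41 to 0.62 for Mrpl3, a counterpart of bacterial ribosomal protein L3. Only Mrpl3 exceeded 0.5 in size, 1.43% of members, whereas 16.1% of all tested genes did. The 95% interval lay within a 2-fold change in both directions for 69 of 70 members and within a 1.5-fold change for 54. Over all tested genes the shares were 80.3% and 46.3%. Among 69 nuclear subunits of oxidative phosphorylation they were 98.6% and 81.2%, and 0 of these genes exceeded 0.5 in size. Among 48 cytosolic ribosomal protein genes they were 93.75% and 52.1%, and 2 genes (4.17%) exceeded 0.5. The narrow spread was therefore not particular to the members. Among members, the exception to the 2-fold limit was Mrpl3, with an interval of 0.01 to 1.23. When untreated replicate 2 was left out, alone or with LV replicate 3, 1 member of 70 was called lower, Mrpl12. In these fits 0.704% of all genes were called lower without untreated replicate 2 and 1.65% without both libraries.

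**Figure D1:**
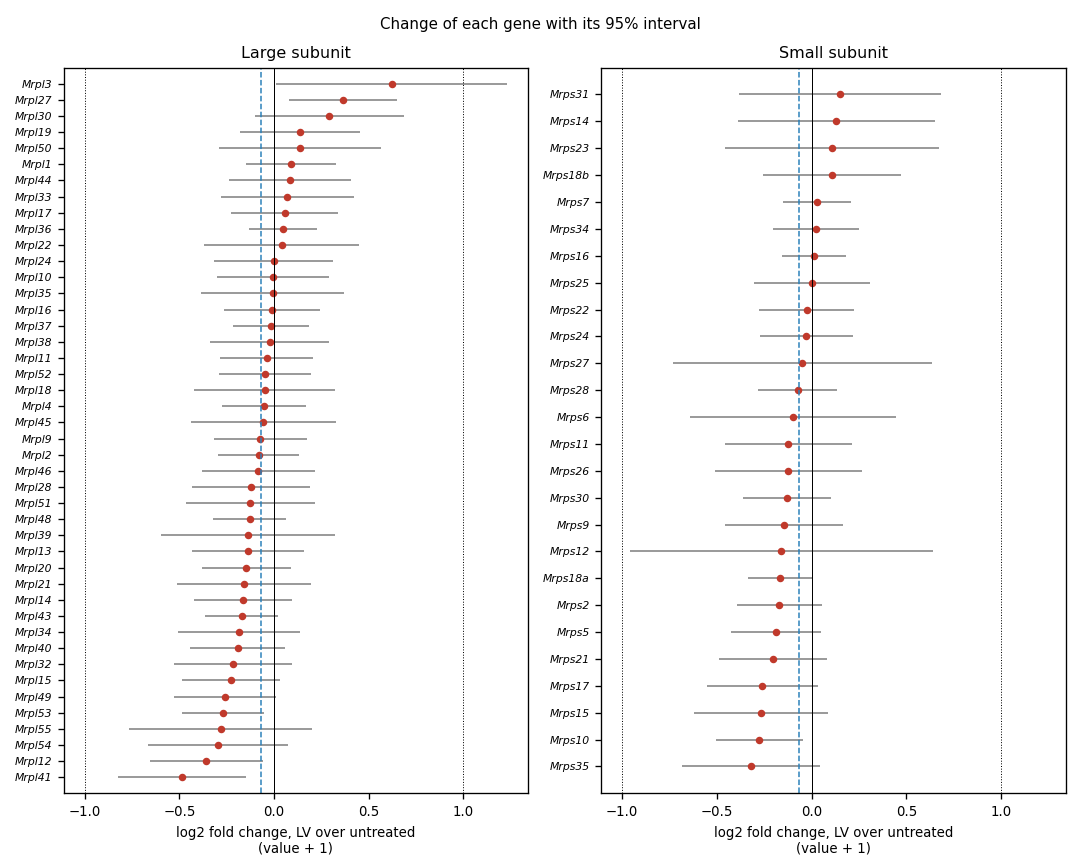
Log2 fold change of each member (point) with its 95% interval (line) from limma, large subunit left and small subunit right. Dotted lines mark a 2-fold change and the dashed line the median of all tested genes, -0.07; only the interval of Mrpl3 crosses a dotted line.

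Members as a whole lay close to the centre of all genes. Their median log2 fold change was -0.08, and that of all tested genes was -0.07. Negative fold changes were found in 51 members (72.9%), positive ones in 18 and exactly 0 in Mrps25, while 58.0% of all tested genes were negative. The negative share of members and its gap to all genes varied with the scaling and the libraries. Median-of-ratios scaling left 39 members (55.7%) and 52.8% of all genes negative, equal totals 46 members (65.7%) and 56.7%, and quantile normalization 51 members (72.9%) and 59.4%. Leaving out untreated replicate 3 gave 45 members (64.3%) and 64.6% of all genes, leaving out LV replicate 3 gave 42 (60.0%) and 58.2%, and leaving out LV replicate 1 gave 58 (82.9%) and 59.3%. The quartiles were -0.17 and 0.01 in members, against -0.25 and 0.12 in all genes.

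**Figure D2:**
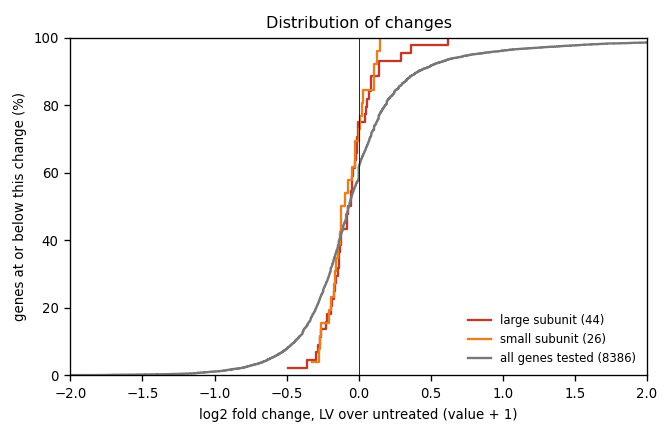
Cumulative share of genes (vertical axis, %) at or below each log2 fold change (horizontal axis, cut at 2 in size) for the 44 large-subunit genes, the 26 small-subunit genes and all 8386 tested genes. Both subunit curves rise steeply around a median of -0.06 and -0.11, and the curve of all genes is wider.

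Fold changes of large and small subunit genes overlapped widely. Of 44 large-subunit genes, 33 had a negative fold change (75%), and the median was -0.06. Of 26 small-subunit genes, 18 were negative (69.2%), with a median of -0.11. The large minus small difference of medians was 0.05 and took both signs when single libraries were left out, from -0.05 without LV replicate 1 to 0.08 without LV replicate 2. Neither subunit had a call. Fold changes of single genes ran from -0.49 to 0.62 in the large subunit and from -0.32 to 0.15 in the small subunit.

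Summed over members, the LV libraries had 1809, 1745 and 1663 in replicates 1 to 3, and the untreated libraries had 1814, 1824 and 1912. The LV sums lay below the untreated ones, though LV replicate 1 and untreated replicate 1 differed by little. LV livers had large-subunit sums of 1216, 1142 and 1096, which overlapped the 1205, 1193 and 1280 of untreated livers. The small-subunit sums of 593, 603 and 567 in LV lay below the 609, 631 and 632 in untreated libraries. The ratio of the large to the small sum was 2.05, 1.89 and 1.93 in LV livers and 1.98, 1.89 and 2.03 in untreated livers, so the balance between the subunits overlapped between the groups. Untreated replicate 3, which also had the highest total over all genes, held the single highest value of 23 members, and LV replicate 3 held the single lowest value of 18. The part of this library difference in the sums was not tested. Members made up 0.361%, 0.349% and 0.330% of the column sums in LV replicates 1 to 3. The shares in untreated replicates 1 to 3 were 0.362%, 0.367% and 0.363%.

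**Figure D3:**
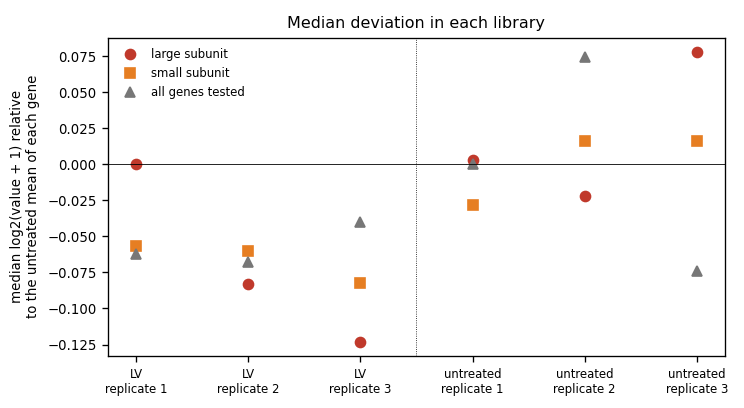
Median over genes of log2(value + 1) relative to the untreated mean of each gene, per library, for large-subunit genes, small-subunit genes and all tested genes. LV replicate 3 has the lowest medians of both subunits (-0.12 and -0.08), while LV replicate 1 is at 0.00 for the large subunit.

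Levels differed far more between genes than between treatments. The mean over the 6 libraries ranged from 2.17 for Mrpl19 to 94.3 for Mrpl12, a 43.5-fold span. Members lay mostly in the middle of the table: 59 of 70 had a mean between 10 and 50, 59 exceeded the median gene (11.8), and 3 exceeded 50, namely Mrpl12, Mrpl14 and Mrps34. The median level was 24.1 in the large subunit and 17.7 in the small subunit, with quartiles that overlapped widely (14.2 to 35.9 and 14.9 to 31.9). Genes with a bacterial counterpart had a median level of 27.2 (42 genes) and those added in mitochondria one of 16.7 (25 genes), a grouping made after the values were seen. Across the 70 genes the level was lower for longer transcripts (Spearman's rho -0.43 with the longest transcript in GENCODE M21). Genes are not independent replicates, and the length correction of the values enters this relation.

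**Figure D4:**
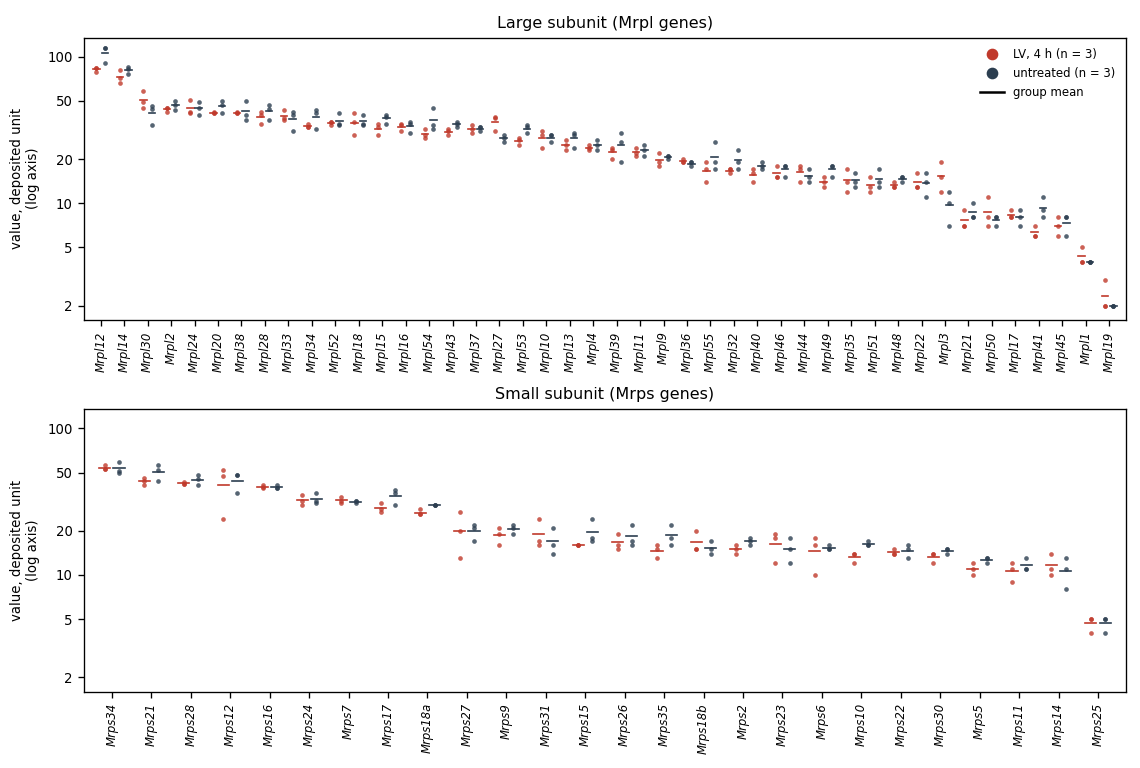
Value of each member in each liver (points; LV left of untreated, log axis) with group means (bars), ordered by mean level within the large and the small subunit. Mrpl12 and Mrpl14 stand above the other large-subunit genes, and the points of both groups overlap for most members.

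Among proteins of the large subunit's stalk, where translation factors bind, only Mrpl12 had groups that did not overlap. Mrpl12 sits in the stalk in several copies, and its human counterpart also binds the mitochondrial RNA polymerase. It had 84, 84 and 79 in LV replicates 1 to 3, against 115, 90 and 114 in untreated livers. All LV values lay below all untreated ones, with untreated replicate 2 the closest. The means were 82.3 ± 2.89 in LV and 106 ± 14.2 in untreated livers (SD, n = 3 each), a log2 fold change of -0.36 ± 0.12 (SE; 95% interval -0.65 to -0.06; limma adjusted p = 0.188). Leaving out untreated replicate 2 brought the limma adjusted p to 0.0468, and leaving out LV replicate 3 as well to 0.0482. With any other single library left out it was 0.268 to 0.362. Mrpl10, which anchors Mrpl12, had 31, 29 and 24 in LV livers against 29, 29 and 26 in untreated livers, with equal means. Mrpl11 at the stalk base had 24, 22 and 21 in LV livers and 21, 23 and 25 in untreated livers. Values of both overlapped between the groups. Polrmt, the mitochondrial RNA polymerase, had 7, 10 and 10 in LV livers against 11, 11 and 8 in untreated livers (limma adjusted p = 0.712).

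In the catalytic core, Mrpl27 was the only member with every LV value above every untreated one. Its bacterial counterpart L27 lies beside the peptidyl transferase centre. It had 38, 39 and 31 in LV livers and 29, 26 and 28 in untreated livers, a log2 fold change of 0.36 ± 0.11 (95% interval 0.08 to 0.65; limma adjusted p = 0.169). Of all tested genes, 8.65% had groups that did not overlap with LV higher. The adjusted p of Mrpl27 stayed above 0.05 in every alternative run, from 0.0627 without LV replicate 3 to 0.384 without LV replicate 2. Mrpl3, whose human counterpart is mutated in a mitochondrial cardiomyopathy, had 19, 12 and 15 in LV livers and 7, 12 and 10 in untreated livers. The groups met at 12, and the log2 fold change was 0.62 ± 0.24 (limma adjusted p = 0.25). Mrpl14, which faces the small subunit, had 81, 66 and 71 in LV livers against 85, 83 and 76 in untreated livers, and the groups overlapped. Mrpl19, the lowest member, had 2, 3 and 2 in LV livers and 2 in each untreated liver, where the rounding of the table hides any small difference. Mrpl1 was similar, with 4, 4 and 5 in LV livers and 4 in each untreated liver.

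Of the large-subunit proteins added in mitochondria, 14 of 16 had a negative fold change, with a median of -0.13. The 27 large-subunit genes with a bacterial counterpart had a median of -0.04, with 18 negative. The small subunit showed the opposite order, with 5 of 9 added genes negative (median -0.03) and 12 of 15 with a bacterial counterpart (median -0.15). Over both subunits the medians were -0.08 and -0.07, and none of these differences was tested. The grouping was made after the values were seen. Negative fold changes were found in 75% of the whole large subunit and 58.0% of all tested genes. Mrpl41 had 7, 6 and 6 in LV livers against 9, 8 and 11 in untreated livers, a log2 fold change of -0.49 ± 0.14 (95% interval -0.83 to -0.15). Its LV values all lay below the untreated ones, by as little as 1 rounded unit. Mrpl53 had 25, 28 and 27 in LV livers and 30, 34 and 33 in untreated livers (-0.27 ± 0.09, limma adjusted p = 0.178). Mrpl43 had 29, 32 and 31 in LV livers and 35, 33 and 36 in untreated livers (-0.17 ± 0.08, limma adjusted p = 0.294). For both genes the groups did not overlap. Mrpl54 had 32, 28 and 29 in LV livers against 32, 34 and 45 in untreated livers, and shared the value 32. Mrpl45, which links the human ribosome to the inner membrane, had 8, 7 and 6 in LV livers and 8, 6 and 8 in untreated livers. Mrpl44, whose human counterpart is also mutated in a cardiomyopathy, had 18, 17 and 14 in LV livers and 14, 17 and 15 in untreated livers.

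In all, 7 members had every LV value below every untreated one, beside 11.0% of all tested genes, and 1 had the reverse order. The 7 were Mrpl12, Mrpl41, Mrpl43, Mrpl53, Mrps10, Mrps15 and Mrps18a.

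In the small subunit, Mrps10 had the smallest adjusted p, 0.188 in limma. This counterpart of bacterial S10 in the subunit's head had 12, 14 and 14 in LV livers against 16, 16 and 17 in untreated livers (log2 fold change -0.28 ± 0.09, 95% interval -0.51 to -0.05). Mrps15, a counterpart of bacterial S15, had 16 in each LV liver and 18, 17 and 24 in untreated livers. Both genes separated the groups, but the untreated values of Mrps15 spread widely (19.7 ± 3.79). Mrps35, a mitochondrial addition, had the lowest fold change of the subunit (-0.32 ± 0.15), with 15, 16 and 13 in LV livers and 16, 22 and 18 in untreated livers. The highest was that of Mrps31 (0.15 ± 0.21), with 24, 16 and 17 in LV livers and 16, 21 and 14 in untreated livers. Mrps14 and Mrps23 followed at 0.13 ± 0.21 and 0.11 ± 0.23, and in all 3 genes the groups overlapped.

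Among abundant small-subunit genes, Mrps34, Mrps16, Mrps28 and Mrps21 overlapped between the groups. Mrps34, which human genetics links to Leigh syndrome, had 56, 53 and 53 in LV livers and 51, 50 and 59 in untreated livers. Mrps16, mutated in a human mitochondrial disease, had 41, 39 and 40 in LV livers and 41, 39 and 39 in untreated livers, and its 95% interval of -0.16 to 0.18 was the narrowest of the 70. Mrps28 had 43, 42 and 42 in LV livers against 48, 41 and 45 in untreated livers, and Mrps21 had 46, 44 and 41 in LV livers against 44, 52 and 56 in untreated livers. Mrps7, needed to assemble the subunit's head, had 31, 34 and 32 in LV livers and 32, 31 and 32 in untreated livers. Mrps22 and Mrps2 are both mutated in human mitochondrial disease. Mrps22 averaged 14.3 ± 0.577 in LV and 14.7 ± 1.53 in untreated livers, and Mrps2 15 ± 1 in LV and 17 ± 1 in untreated livers (SD, n = 3 each). Values of Mrps7, Mrps22 and Mrps2 overlapped as well. At the low end of the subunit, Mrps25 had 5, 4 and 5 in LV livers and 5, 5 and 4 in untreated livers, and Mrps11 had 9, 12 and 11 in LV livers against 11, 13 and 11 in untreated livers.

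Mrps12, at the decoding centre, showed the widest spread within a group. It had 24, 52 and 47 in LV livers and 48, 48 and 36 in untreated livers, so LV replicate 1 held less than any other library. The log2 fold change was -0.16 ± 0.32, and 0.18 without LV replicate 1. Mrps27, a protein with RNA-binding repeats, also varied among LV livers, with 20, 27 and 13, against 22, 21 and 17 in untreated livers. It was named after its values were seen. The median within-group standard deviation of members on the log2 scale was 0.14, and that of all tested genes was 0.21.

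Several members carry a name that does not give their place. Mrps18a and Mrps18b are relatives of bacterial S18. Structures of the mammalian ribosome place Mrps18a and Mrps30, despite their names, in the large subunit. Mrps18a had 26, 26 and 28 in LV livers and 30 in each untreated liver (log2 fold change -0.16 ± 0.07, limma adjusted p = 0.271), without overlap. Mrps18b had 20, 15 and 15 in LV livers and 15, 17 and 14 in untreated livers, and Mrps30 had 14, 14 and 12 in LV livers against 14, 15 and 15 in untreated livers. With Mrps18a and Mrps30 counted in the large subunit, 35 of 46 large-subunit genes and 16 of 24 small-subunit genes were negative, with medians of -0.08 and -0.09. Processed pseudogenes of this family exist (RefSeq lists 6 under such names), and no source used here says how reads shared with them were counted.

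The remaining 35 members, 29 of the large and 6 of the small subunit, all had overlapping groups, because the naming rule took every member without overlap. It also took the extremes of change and level in each subunit. Mean levels of these 35 ran from 8.17 to 45.3. Log2 fold changes lay between -0.28 and 0.14 in the large subunit, 24 of them negative, and between -0.26 and -0.03 in the small subunit. The smallest adjusted p among them was 0.265 in limma.

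Some members start head to head with a neighbour, and in one such pair the neighbour was called. In GENCODE M21, 16 of 70 members (22.9%) had a protein-coding gene on the opposite strand, facing away, with starts within 1000 bases, compared with 10.4% of 7339 annotated genes of the table. Of these neighbours, 10 were measured and 1 was called, beside 4.63% of all tested genes in either direction. With so few neighbours, the count says little about such pairs. The called one was Mitd1, beside Mrpl30, a counterpart of bacterial L30. Human MITD1 acts in the last step of cell division. Mitd1 rose, with 34, 25 and 24 in LV livers against 5, 7 and 4 in untreated livers (log2 fold change 2.19, adjusted p = 0.00742 in limma). Its adjusted p in limma became 0.0524 when LV replicate 2 was left out and 0.0527 when untreated replicate 1 was. Mrpl30 had 49, 58 and 45 in LV livers and 34, 46 and 44 in untreated livers (0.29 ± 0.16, 95% interval -0.10 to 0.69, limma adjusted p = 0.365), and its groups overlapped. The log2 ratio of Mitd1 to Mrpl30 was -0.51, -1.18 and -0.88 in LV livers and -2.54, -2.55 and -3.17 in untreated livers, a difference of 1.90. A two-sided exact permutation test of it gave p = 0.1, the smallest that 3 against 3 allows, and the pair was picked after its values were seen. The other 9 measured neighbours, among them Sars2 beside Mrps12 and Psma2 beside Mrpl32, had limma adjusted p values of 0.303 or more.

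**Figure D5:**
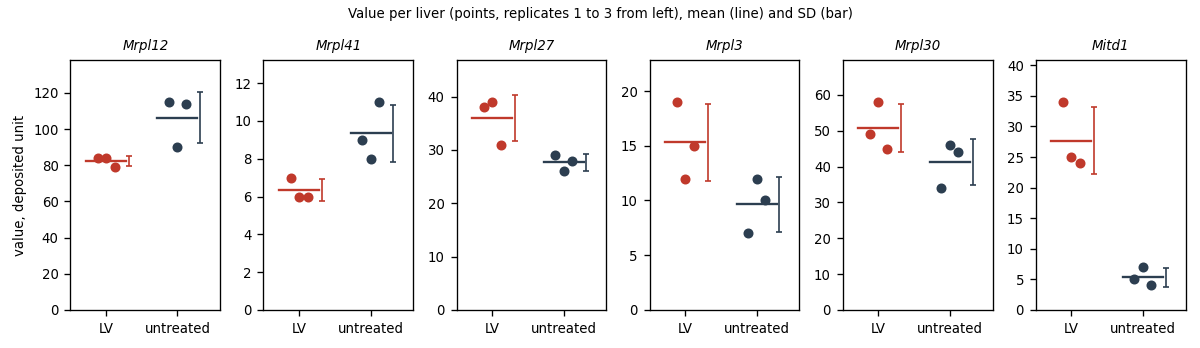
Value in each liver (points), mean (line) and SD (bar at the side) for Mrpl12, Mrpl41, Mrpl27, Mrpl3, Mrpl30 and its neighbour Mitd1, LV left of untreated, each axis from 0. LV values of Mrpl12 and Mrpl41 lie below and those of Mrpl27 and Mitd1 above all untreated values, while Mrpl3 and Mrpl30 overlap.

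The sequences around these starts are shown because Mrpl30 and Mitd1, of which only the second was called, start from one shared stretch. Each window holds 250 bases before and 50 after the start of transcription, 5′ to 3′ on the gene's strand, from RefSeq on GRCm38.p6. The Mrpl30 window is chr1:37890227-37890526 on the plus strand and the Mitd1 window chr1:37890362-37890661 on the minus strand. The starts are 66 bases apart, and the windows share 165 bases. Capitals mark matches, on either strand, to 3 patterns: GCGCA, any base and GCGC for NRF1, CCGGAAG for ETS factors, and GAAA, any 2 bases and GAAA for an interferon-stimulated response element.
Mrpl30: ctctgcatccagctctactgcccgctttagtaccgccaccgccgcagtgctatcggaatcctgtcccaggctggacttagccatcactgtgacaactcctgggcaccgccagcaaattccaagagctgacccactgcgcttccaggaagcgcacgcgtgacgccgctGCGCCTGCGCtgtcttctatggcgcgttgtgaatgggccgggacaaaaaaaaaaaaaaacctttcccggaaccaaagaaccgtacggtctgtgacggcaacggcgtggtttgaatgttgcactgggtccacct
Mitd1: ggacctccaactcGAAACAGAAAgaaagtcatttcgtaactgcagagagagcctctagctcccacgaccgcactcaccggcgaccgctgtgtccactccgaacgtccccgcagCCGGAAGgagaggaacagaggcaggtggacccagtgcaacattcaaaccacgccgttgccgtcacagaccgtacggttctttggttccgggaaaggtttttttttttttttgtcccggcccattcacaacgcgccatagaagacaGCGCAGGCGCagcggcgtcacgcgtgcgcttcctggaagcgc
Both windows hold the same NRF1 match, 83 bases before the Mrpl30 start. The Mitd1 window alone of this pair holds an ETS match, 137 bases before the Mitd1 start, and a response-element match 237 bases before it. The response-element match lies 171 bases past the Mrpl30 start, beyond its window. The matches printed do not overlap each other. A match is a run of letters and not a measured binding site.

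Promoter windows of the members were searched for motifs of factors known to drive nuclear genes of mitochondria. Windows were found for 61 of 70 members. NRF1, a regulator of respiratory chain genes, had its pattern in 12 members (19.7%), against 12.3% of 5875 tested genes and 5.19% of 27025 genes with a window. The ETS pattern, read by GABPA among other factors, occurred in 22 members (36.1%), against 20.9% and 9.93%. The YY1 pattern AAGATGGC occurred in 11 members (18.0%), against 5.74% and 3.19%. At least one of these patterns was present in 38 of the 61 members (62.3%). The share of tested genes with at least one was not counted. The response-element pattern, added after the values were seen, occurred in 2 members (3.28%), against 3.93% and 3.99%. The median GC content of the windows was 58% in members, 61% in tested genes and 52.7% in all genes.

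All 8 members whose groups did not overlap had a window, and 5 of these windows held an NRF1, ETS or YY1 match. Among all members with a window, 38 of 61 (62.3%) held one. The windows of 3 of them are printed: Mrpl41 with the lowest fold change, Mrpl12 with the highest level, and Mrpl27, the member with LV higher. Mrpl41 (chr2:24975049-24975348, minus strand) holds none of the patterns. Mrpl12 (chr11:120484387-120484686, plus strand) holds an NRF1 match, and Mrpl27 (chr11:94653541-94653840, plus strand) an ETS match, both in capitals.
Mrpl41: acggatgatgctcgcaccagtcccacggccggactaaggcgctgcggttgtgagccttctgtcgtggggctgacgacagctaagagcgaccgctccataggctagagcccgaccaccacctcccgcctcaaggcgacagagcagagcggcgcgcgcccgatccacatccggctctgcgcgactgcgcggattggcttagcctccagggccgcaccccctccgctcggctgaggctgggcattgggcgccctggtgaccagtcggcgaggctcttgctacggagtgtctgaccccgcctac
Mrpl12: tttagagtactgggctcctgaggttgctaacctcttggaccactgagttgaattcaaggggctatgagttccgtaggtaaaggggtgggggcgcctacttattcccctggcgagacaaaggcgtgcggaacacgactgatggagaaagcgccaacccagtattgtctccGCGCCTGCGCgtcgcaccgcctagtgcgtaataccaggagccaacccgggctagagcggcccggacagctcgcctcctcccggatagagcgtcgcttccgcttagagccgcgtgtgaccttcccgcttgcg
Mrpl27: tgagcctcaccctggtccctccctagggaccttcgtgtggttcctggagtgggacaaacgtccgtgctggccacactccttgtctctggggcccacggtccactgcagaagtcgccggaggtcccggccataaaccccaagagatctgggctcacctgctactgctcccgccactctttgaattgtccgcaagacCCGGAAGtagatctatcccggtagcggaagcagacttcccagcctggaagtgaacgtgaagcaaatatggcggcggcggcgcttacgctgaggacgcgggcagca
No match in Mrpl41 says only that these letters are not in its window. The match lies 81 bases before the start in Mrpl12 and 55 bases before it in Mrpl27.

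Other genes of mitochondrial translation gave no call either, beside 4.63% of all tested genes. The lists of related genes here and in the next paragraphs are short, so 0 calls says little at that share. Among 12 measured translation factors, 0 passed, 8 were negative and the median log2 fold change was -0.09. Mtif3, the initiation factor that acts on the small subunit, had 12 in each LV liver and 16, 15 and 19 in untreated livers (-0.44 ± 0.11, limma adjusted p = 0.0965). Taco1, an activator of the synthesis of a cytochrome oxidase subunit, listed as Ccdc44, had 17, 19 and 16 in LV livers and 21, 20 and 20 in untreated livers. In both genes the LV values lay below the untreated ones, as in 11.0% of all tested genes. Both were named for the smallest p of their list, as were the first genes named from each related list below. Separated groups are partly a product of that choice.

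Among 21 assembly factors of the ribosome 0 passed, with 10 positive, 11 negative and a median of -0.01. Rbfa, which matures the small subunit and is listed as 1110032A13Rik, had 20, 23 and 24 in LV livers and 30, 31 and 34 in untreated livers (-0.49 ± 0.10, limma adjusted p = 0.0674). Mterf4, a large-subunit assembly factor listed as Mterfd2, had 6, 5 and 5 in LV livers and 8, 7 and 8 in untreated livers (-0.45 ± 0.10, limma adjusted p = 0.0821). These were the assembly factors with the smallest p. The groups did not overlap in either gene, and neither was called in any alternative run. None of 14 mitochondrial aminoacyl-tRNA synthetases passed (median -0.05), and the smallest adjusted p values in limma were 0.339 for Aars2 and 0.372 for Yars2. None of 7 proteins tied to the ribosome under other names passed (median -0.03). Mrp63, the older name of Mrpl57, was not in that list. It had 9, 12 and 8 in LV livers and 11, 10 and 15 in untreated livers (-0.28 ± 0.21, limma adjusted p = 0.497). Chchd1, a small-subunit component, had 29, 25 and 28 in LV livers against 32, 31 and 34 in untreated livers. Ptcd1, an RNA-binding protein of mitochondria, had 11, 12 and 9 in LV livers and 8 in each untreated liver.

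Of 8 genes of mitochondrial transcription and the nucleoid 0 passed, 7 were negative and the median was -0.18. Ssbp1, which coats single-stranded mitochondrial DNA, had 5, 5 and 6 in LV livers and 7, 8 and 7 in untreated livers (-0.40 ± 0.10, adjusted p = 0.111 in limma). The limma adjusted p was 0.0335 once LV replicate 3 and untreated replicate 2 were left out. Atad3a, an inner membrane ATPase, had 24, 25 and 30 in LV livers against 33, 40 and 32 in untreated livers. Of 17 nuclear regulators of mitochondrial biogenesis 0 passed, with 7 positive, 9 negative and a median of -0.07. At an unadjusted p under 0.05, 3 of the 17 were higher and 4 lower, beside 9.21% and 10.3% of all tested genes. Ppargc1b, the coactivator PGC-1beta, had 1, 2 and 4 in LV livers and 7, 9 and 11 in untreated livers, so the log2 fold change was -1.67 ± 0.36, with an adjusted p of 0.0747 in limma. Its adjusted p in limma was 0.0346 with equal totals, 0.0335 with median-of-ratios scaling, 0.0422 with only genes of mean 5 or more tested, and 0.0371 without LV replicate 3, but up to 0.222 without other single libraries. Esrra, a nuclear receptor that this coactivator serves, had 14, 15 and 17 in LV livers and 20, 22 and 22 in untreated livers (-0.45 ± 0.10, limma adjusted p = 0.0759). LV values of Ppargc1b and Esrra, named for the smallest p of this list, lay wholly below the untreated ones. The others past an unadjusted p of 0.05 were named after their values were seen. Nrf1, the factor behind the NRF1 pattern, had 6, 5 and 6 in LV livers and 4, 5 and 4 in untreated livers (0.32 ± 0.12, limma adjusted p = 0.212). Gabpb1, a partner subunit of the ETS factor GABPA, had 11, 13 and 14 in LV livers and 9, 11 and 9 in untreated livers (0.36 ± 0.13, limma adjusted p = 0.219). Max, the dimer partner of MYC, had 19, 17 and 13 in LV livers and 9, 13 and 12 in untreated livers (0.49 ± 0.19, limma adjusted p = 0.252). These 3 genes shared a value between the groups. Ppara and Ppard are nuclear receptors for fatty acids. Ppara had 13, 26 and 22 in LV livers and 30, 35 and 32 in untreated livers (-0.69 ± 0.26, limma adjusted p = 0.227). Its LV values, too, lay wholly below the untreated ones. Ppard had 4, 5 and 4 in LV livers and 7, 5 and 6 in untreated livers (-0.39 ± 0.14, limma adjusted p = 0.219).

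Beside the 2 most similar sets of genes, the members did not stand apart in calls. Of all tested genes, 4.63% were called. Of 48 cytosolic ribosomal protein genes 0 passed, with a median log2 fold change of -0.13 and 35 negative (72.9%). Of 69 nuclear subunits of oxidative phosphorylation 0 passed, with a median of -0.11 and 57 negative (82.6%). The difference between these sets and the members was not tested. The median level was 19.8 in the members, against 61.7 in the cytosolic ribosomal genes and 122 in the subunit genes.

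Summed markers of other liver cells differed between the libraries as well. The 9 measured Kupffer cell markers summed to 127, 300 and 192 in LV livers and 359, 239 and 330 in untreated livers. Of these 9 genes, 8 had a negative fold change, the median was -0.62 and 0 passed, beside 4.63% of all tested genes. The 8 markers of sinusoidal endothelium summed to 69, 132 and 132 in LV livers and 164, 159 and 140 in untreated livers. Of these, 6 had a negative and 2 a positive fold change. Lyve1, a positive one, had 10, 5 and 5 in LV livers and 3, 3 and 2 in untreated livers. The 8 markers of stellate cells summed to 172, 164 and 149 in LV livers and 185, 153 and 196 in untreated livers. Here 4 were negative and 4 positive, and both lists had 0 calls. No marker of these lists was at 0 in any library. Markers of neutrophils, of lymphocytes and of bile duct cells were not among the listed genes. The part of cell composition in the members' values was not tested.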

How the data were processed

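Total RNA of 6 whole mouse livers was turned into Illumina TruSeq RNA libraries, per the labels' protocols. Per the submitters' processing notes, the build was mm9. No source used here names the aligner, annotation or counting. The deposited values are handled as a score, that is, whole numbers which by their behaviour the authors had scaled for library size and transcript length and rounded. The lowest values scaled with length: the first percentile was 6.17 among the shortest genes and 1 among the longest (outer 10% each), against 7.80 and 9.20 after multiplying by kb. At a mean of 2 to 5, variance over mean was 0.236 in LV and 0.224 in untreated replicates, lower than counted reads allow.

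The fit used 8386 of 8390 genes, those at 1 or more in 3 or more samples. Groups were compared on log2(value + 1) by limma 3.58.1 (R 4.3.3), two-sided, without a block and with the prior variance following intensity. In simulated data rounded like the table, known changes kept their direction, many of the smaller ones were not called, and unchanged genes of low value were called more often than the threshold allows. A call at low values is therefore less certain than its adjusted p, and a gene without a call may still have changed. Members of the list were named by a rule: groups that do not overlap, the extremes of change and level in each subunit, the widest range, and a set of known roles. From each list of related genes, those with the smallest p were named. The members, lists and tests were chosen with earlier results of these data known. Older symbols were matched through RefSeq synonyms. Promoter coordinates are on GRCm38.p6 and were not carried over to mm9. Alternatives left out libraries or changed the block, pseudocount, filter, scaling, trend or threshold.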

Additional observations from a re-analysis of the deposited data

How the results depend on the processing

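Across 54 named genes, 764 of 807 alternative values kept direction and side of the threshold. Direction changed in 33, for 14 genes whose log2 fold change was at most 0.16 in size; the cause was not tested. With equal totals Mrpl10 was at 0.011, and with median-of-ratios scaling Mrpl10 was at 0.045, Mrpl11 at 0.011, Mrps22 at 0.023 and Mrps27 at 0.0023. Without both LV replicate 3 and untreated replicate 2, Mrpl10 was at 0.12, Mrpl11 at 0.0038, Mrps22 at 0.0060, Mrps27 at 0.25 and Mrps34 at -0.0098. With single libraries left out, the range was -0.081 to 0.097 for Mrpl10, -0.10 to 0.020 for Mrpl11, -0.18 to 0.036 for Mrpl45 and -0.37 to 0.18 for Mrps12. It was -0.046 to 0.27 for Mrps14, -0.0057 to 0.035 for Mrps16, -0.026 to 0.18 for Mrps18b, -0.11 to 0.034 for Mrps22, -0.034 to 0.30 for Mrps23, -0.023 to 0.30 for Mrps31, -0.023 to 0.094 for Mrps34, -0.0074 to 0.057 for Mrps7, -0.28 to 0.22 for Mrps27 and -0.28 to 0.013 for Polrmt.

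Members called lower, and large-subunit genes among them, numbered 1 without LV replicate 3 and untreated replicate 2 together, and 0 to 1 with single libraries left out. The median log2 fold change was -0.026 over members and -0.061 over small-subunit genes with median-of-ratios scaling, and -0.085 over small-subunit genes when subunits followed structure. Without LV replicate 3 and untreated replicate 2 it was -0.060 over small-subunit genes and -0.013 over all genes, and the large minus small difference was -0.019. Leaving out single libraries gave -0.13 to -0.049 for the large subunit, -0.14 to -0.065 for the small subunit and -0.051 to 0.078 for their difference. Over all genes, calls numbered 120 to 317 higher and 10 to 116 lower with single libraries left out, 138 lower without both libraries, and 225 lower at an adjusted p under 0.1.

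With the replicate block, 145 genes were called higher and 11 lower, and the adjusted p of Mitd1 was 0.0572. Same-numbered samples correlated in their deviations at 0.28, -0.47 and -0.34, so the numbers were not taken as pairs; LV replicates 1, 2 and 3 correlated best with untreated replicates 1, 1 and 2. Rounded values and an unknown depth limit the low genes.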
